A study of Homo sapiens with 12 samples.

Results

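Chromatin accessibility was compared between oxamate-resistant and parental MIAPaCa2 cells that were not under oxamate when they were collected. Peaks of the 6 untreated libraries were merged wherever they overlapped by 1 bp, on chromosomes 1 to 22 and X, which gave 122344 regions. A region was called gained in resistant cells when all 3 resistant lists and 0 of the 3 parental lists held a peak there, and lost when the reverse held. By this rule 791 regions were gained (0.647% of all regions) and 499 were lost (0.408%), so that 1290 regions separated the cell kinds completely, while 31256 regions held a peak in 6 of 6 lists.

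MIAPaCa2 is an established human pancreatic ductal adenocarcinoma line, and oxamate is a pyruvate analog that competitively inhibits lactate dehydrogenase A (LDHA). The series holds 12 ATAC-seq libraries in 4 groups of 3: parental and resistant cells, each untreated or treated with oxamate. The resistant cells are a population obtained by prolonged culture of the parental line in oxamate, not a panel of separate clones, and the untreated groups received vehicle. All groups share the MIAPaCa2 background, no gene was edited, and the labels do not say whether replicates came from separate cultures, so p-values measure only the spread between these libraries.

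ATAC-seq uses a transposase that inserts sequencing adapters where DNA is not wrapped tightly in nucleosomes, so a pile of fragments, called a peak, marks an accessible stretch. Promoters of active genes are accessible in many cell types, whereas enhancers inside or between genes tend to be open in a more cell-type-specific way. In pancreatic cancer cells, as in other cells, such distal elements are bound by transcription factors that set which genes are used. In a bulk library, fewer cells with an open site and less opening per cell cannot be told apart.

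Among the gained regions, 25 covered an annotated start site of a protein-coding gene, and among the lost regions 7 did. Counting start sites of any gene, 4.55% of gained and 2.00% of lost regions covered one. The share was 8.74% of all regions and 30.9% of those called in 6 of 6 lists. Regions with peaks in 3 untreated lists drawn from both kinds of cells gave 2.15%. The set over protein-coding start sites was chosen after its values were seen, and it is complete. The 250 bases before the start site are printed for 4 gained and 3 lost examples, chosen for genes with known roles in drug metabolism, signalling, adhesion and pH control. They come from RefSeq on GRCh38.p14, are written 5′ to 3′ along the gene's strand, and are in lower case except for 4 motifs. Capitals mark TGANTCA (the AP-1 site), GGGCGG or CCGCCC (the GC box), CCAAT or ATTGG (the CCAAT box) and CCGGAAG or CTTCCGG (the core bound by ETS factors), searched on both strands.
CDA, plus strand, chr1:20588847-20589096: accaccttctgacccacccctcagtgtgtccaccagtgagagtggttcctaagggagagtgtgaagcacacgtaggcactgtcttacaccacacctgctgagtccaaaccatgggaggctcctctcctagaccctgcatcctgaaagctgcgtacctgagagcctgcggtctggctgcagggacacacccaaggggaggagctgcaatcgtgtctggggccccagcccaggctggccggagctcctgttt
TGFBR2, plus strand, chr3:30606351-30606600: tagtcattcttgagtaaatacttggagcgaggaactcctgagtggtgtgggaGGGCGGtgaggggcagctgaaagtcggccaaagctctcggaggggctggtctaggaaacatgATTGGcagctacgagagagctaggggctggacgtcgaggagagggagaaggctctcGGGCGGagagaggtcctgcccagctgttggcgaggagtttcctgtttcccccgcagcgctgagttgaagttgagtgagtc
CLDN4, plus strand, chr7:73830746-73830995: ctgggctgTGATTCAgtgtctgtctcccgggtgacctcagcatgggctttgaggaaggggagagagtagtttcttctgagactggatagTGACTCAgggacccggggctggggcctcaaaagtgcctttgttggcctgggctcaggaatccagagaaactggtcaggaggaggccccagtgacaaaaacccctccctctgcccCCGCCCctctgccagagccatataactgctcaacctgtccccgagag
PTCH1, minus strand, chr9:95507200-95507449: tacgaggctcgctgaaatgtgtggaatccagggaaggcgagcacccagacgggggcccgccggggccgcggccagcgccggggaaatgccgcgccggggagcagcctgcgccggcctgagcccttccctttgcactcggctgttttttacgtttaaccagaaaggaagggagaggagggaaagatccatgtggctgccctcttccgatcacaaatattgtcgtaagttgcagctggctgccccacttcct
DUSP10, minus strand, chr1:221742090-221742339: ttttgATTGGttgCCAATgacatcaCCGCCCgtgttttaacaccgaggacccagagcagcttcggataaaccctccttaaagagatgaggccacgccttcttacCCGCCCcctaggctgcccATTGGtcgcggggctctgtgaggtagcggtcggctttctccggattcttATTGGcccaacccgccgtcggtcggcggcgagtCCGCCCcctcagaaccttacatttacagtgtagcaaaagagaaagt
IRS1, minus strand, chr2:226799821-226800070: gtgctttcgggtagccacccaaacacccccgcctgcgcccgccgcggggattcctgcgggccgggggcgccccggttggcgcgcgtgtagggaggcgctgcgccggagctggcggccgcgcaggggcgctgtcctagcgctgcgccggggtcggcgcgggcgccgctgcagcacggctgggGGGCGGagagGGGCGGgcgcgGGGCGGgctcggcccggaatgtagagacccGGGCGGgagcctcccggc
SLC4A7, minus strand, chr3:27456779-27457028: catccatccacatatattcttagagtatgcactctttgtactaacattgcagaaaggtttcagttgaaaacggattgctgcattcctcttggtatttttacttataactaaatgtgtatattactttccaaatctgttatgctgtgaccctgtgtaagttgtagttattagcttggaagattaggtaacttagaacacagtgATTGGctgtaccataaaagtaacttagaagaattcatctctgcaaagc

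The printed stretches need not lie wholly in their regions. The gained region held 66 of the 250 bases at CLDN4, 204 at CDA and 148 at PTCH1. The lost region held 193 at IRS1 and 92 at SLC4A7. The CLDN4 stretch held 2 AP-1 matches, which lay outside the gained region. The DUSP10 stretch held 3 GC boxes and 4 CCAAT boxes, whereas the CDA and PTCH1 stretches held none of the 4 motifs. Over the 27 protein-coding start sites in gained regions (26 genes), the median GC content of the 250 bases was 58.8% and the median number of CpG pairs was 7. The corresponding medians were 61.6% and 18 for the 7 start sites in lost regions, 66.4% and 22 for the 11899 start sites in regions called in 6 of 6 lists, and 62% and 16 for all 22132 protein-coding promoters. Start sites in gained regions thus lay in sequence with fewer CpG pairs than the promoters that were open in every library. Start sites in regions called in 3 lists of both kinds were not measured, so this cannot be called particular to gained regions. AP-1 matches stood in 3 of 27 gained stretches (11.1%), in 0 of 7 lost stretches and in 5.35% of all protein-coding promoters. GC boxes stood in 48.1% of the gained and 71.4% of the lost stretches against 53.7% of all, CCAAT boxes in 33.3% and 71.4% against 32.7%, and ETS cores in 7.41% and 0% against 10.7%. These counts are few and include bases outside the gained and lost regions. A match is a description of the letters only.

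Values below are the fold enrichment of a peak over its local background as the peak lists give it, and −log10 q, the strength of the peak call after correction for multiple testing. Every list began at a −log10 q of 1. Where a list holds no peak it gives no value, so absence means only that the site did not reach that limit. Peaks were called in each library separately, and the rule itself uses these calls. Differences at regions between the 6 untreated lists are therefore given as descriptions without a test. For these lists, only values that summarise a whole library, such as its number of peaks, were tested.

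At the start of CDA (cytidine deaminase, which salvages pyrimidine nucleosides and also inactivates the pancreatic cancer drug gemcitabine) the gained region was 1191 bp wide. Its fold enrichment was 3.09, 3.09 and 3.58 in the 3 untreated resistant libraries, and it was also called in 3 of 3 treated resistant and 0 of 3 treated parental libraries. The region over the start of TGFBR2 (the type II receptor of TGF-beta) was 876 bp wide, with fold enrichments of 5.29, 3.53 and 6.41, and again had peaks in 3 treated resistant and 0 treated parental lists. A further gained region, 154 bp wide, lay 376 bp from the other end of TGFBR2, with folds of 4.20, 4.06 and 5.33. Both ends of this receptor gene thus carried a peak in untreated resistant and not in untreated parental lists, but the narrower region was not gained under the width limit described further on and was called in 2 of 3 treated resistant lists. At CLDN4 (claudin 4, a tight-junction protein of epithelia) the folds were 2.41, 2.86 and 2.59 and at an internal start site of PTCH1 (the Hedgehog receptor) 2.45, 2.35 and 2.44, both with 3 treated resistant and 0 treated parental calls.

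The other gained start sites belonged to genes of several kinds. LRP8 (a receptor for reelin and apolipoprotein E), PTPN22 (a tyrosine phosphatase of lymphocytes), SCNN1B (the beta subunit of the epithelial sodium channel) and TNFSF13 (the cytokine APRIL) are surface, signalling or secreted proteins. TET3 (an enzyme that oxidises methylcytosine), ZBTB20, ZBTB42, ZNF516, ZSCAN12 and NPAS1 encode nuclear proteins that act on DNA. KSR1 (a scaffold of the MAP kinase cascade), PDE7B (a cAMP phosphodiesterase), LARP1 (an RNA-binding protein that controls translation of ribosomal protein messages), LGALS3BP, TPH2, PCDH15, SNCAIP, CCDC149, CIMAP1C, KLHL4, ZCCHC12 and LOC105377015 completed the set. PTPN22 had the best rank among them, with folds of 4.06, 5.66 and 6.73, and KSR1 the weakest, with 2.79, 2.91 and 3.64. Of these 25 regions, 23 were called in at least 1 treated resistant list, 4 in a treated parental list, and 9 in 3 treated resistant and 0 treated parental lists. With the width limit, 23 of the 25 were still gained, while PTPN22 and LGALS3BP were not.

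The 7 lost start sites belonged to DUSP10 (a phosphatase of the stress kinases JNK and p38), IRS1 (the adaptor that carries insulin and IGF1 receptor signals), SLC4A7 (a sodium bicarbonate cotransporter), TBC1D5, RUNDC3B, PPP1R36 and CCDC116. Fold enrichments in the 3 untreated parental libraries were 4.00, 4.11 and 3.43 at DUSP10, 2.33, 2.37 and 2.55 at IRS1, and 3.23, 3.39 and 3.64 at SLC4A7. The IRS1 peak was among the weakest of its lists, at a median percentile of 97.2 from the top, and the treated libraries held it in 1 resistant and 0 parental lists. The RUNDC3B start lies inside ABCB1, which encodes a multidrug efflux pump on the overlapping span, and had folds of 3.42, 3.27 and 3.48. None of the 7 had peaks in 3 treated parental and 0 treated resistant lists, 4 were called in some treated parental list and 3 in some treated resistant list. The difference from the gained start sites was not tested.

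The 6 untreated libraries held 52810 to 61469 peaks each. Resistant libraries had fewer peaks (55748 ± 3143 against 60432 ± 901, mean ± SD, n = 3 each, exact permutation p = 0.1, two-sided) that covered more sequence (28.9 ± 4.28 against 23.7 ± 2.64 Mb, exact permutation p = 0.1). Their peaks were wider, at a median of 374 ± 54 against 271 ± 39.2 bp (exact permutation p = 0.1). With 3 libraries against 3, 0.1 is the smallest p this test can give, and the lowest value adjusted over 11 such tests was 0.183, so no difference here could pass a threshold of 0.05. The smallest peak of a list, which the peak caller sets from the fragment length, was 109 ± 13.5 bp in resistant and 82.7 ± 6.66 bp in parental libraries (mean ± SD, n = 3 each, exact permutation p = 0.1), and the lowest resistant value, 98 bp, was above the highest parental value, 87 bp. A relative sequencing depth recovered from the peak statistics ranged from 1 to 1.84 in resistant and from 1.33 to 1.76 in parental libraries, where 1 is the shallowest of the 6. A width limit was therefore tried, set to the smallest peak of resistant replicate 1, the library with the widest such peak. The direction in peak number turned when narrower peaks were left out of all lists (resistant minus parental 3585, exact permutation p = 0.6), so the number of peaks per library did not separate the cells independently of peak width.

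Markers of the labelled tissue were checked by counting the lists that held a peak no more than 1 kb away from either end of each gene. Of 8 ductal epithelial markers, 5 had a peak in 6 of 6 lists, while KRT7 and EPCAM had one in 1 parental and 0 resistant lists. Of 4 mesenchymal markers 3 were open in 6 of 6 lists, and all 4 endothelial markers had no peak. Among leukocyte markers, the defining genes PTPRC and CD3E had no peak, whereas CD68 and SPI1 had one in 6 of 6 lists. Of 5 fibroblast markers, COL1A1 and COL1A2 had a peak in 6 of 6 lists and LUM and DCN had none.

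Most regions were far from this all-or-none pattern. Peaks unique to 1 list made up 63901 of the 122344 regions. Next to the gained set stood 1316 regions with peaks in 3 resistant and 1 parental lists and 2640 with peaks in 2 resistant and 0 parental lists. Next to the lost set stood 1096 regions with peaks in 3 parental and 1 resistant lists and 2348 with 2 parental and 0 resistant. Of the 6302 regions with a peak in exactly 3 of the 6 lists, 5012 drew them from both kinds of cells. Leaving out 1 library relaxes the rule to 2 of 2 in its group, which gave 1044 to 2134 gained and 810 to 1402 lost regions. The highest gained count came without resistant replicate 2 and the highest lost count without parental replicate 3.

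**Figure D1:**
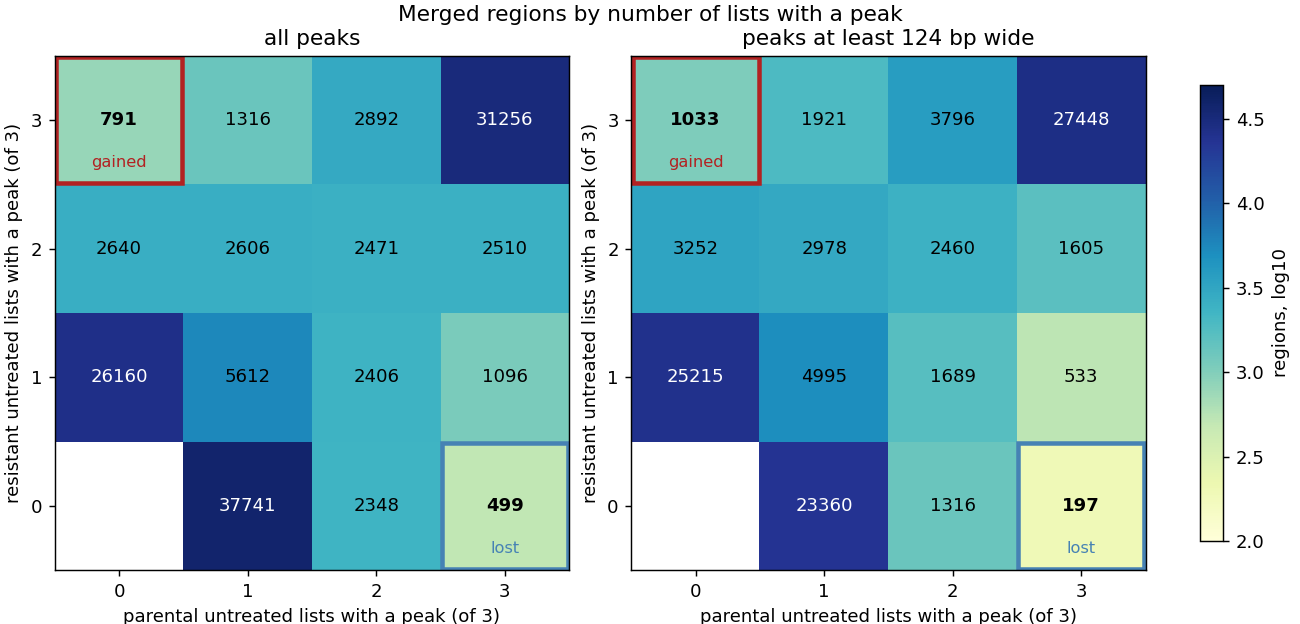
Number of merged regions by how many of the 3 resistant (vertical axis) and 3 parental (horizontal axis) untreated lists held a peak, with all peaks on the left and with peaks that met the width limit on the right, coloured by log10 of the number. The gained corner rises from 791 to 1033 with the width limit and the lost corner falls from 499 to 197.

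The width limit bore on the lost set far more than on the gained set. When every peak narrower than the smallest peak of resistant replicate 1 was left out of all lists, 101798 regions remained, of which 1033 were gained (1.01%) and 197 lost (0.194%). Of the 791 gained regions, 652 were again gained (82.4%), and they made up 63.1% of the 1033. Since the limit also left out parental peaks, a region could become gained although a parental list held a narrower peak there. With the limit asked only of the peaks that define a gain, 652 regions were gained. Of the 499 lost regions only 162 were again lost (32.5%), which made up 82.2% of the 197. The merged span of 66 lost regions was itself under the limit and that of 13 was under 98 bp, the smallest peak in any untreated resistant list, while 0 gained regions were that narrow. Lost regions had a median width of 256 bp and gained regions of 467 bp, against 268 bp for all regions and 794 bp for those in 6 of 6 lists. The numbers of gained and lost regions thus moved with the width limit, and the part of the fragment length in single regions was not tested.

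Both sets lay mostly away from genes' ends. Of the gained regions, 17.2% (136 of 791, 95% exact interval 14.6 to 20.01) were within 1 kb of an end of any annotated gene, 48.9% were inside a gene body and 33.9% were between genes. Of the lost regions, 13.4% (67 of 499, 10.6 to 16.7) were at a gene end, 52.1% in a gene body and 34.5% between genes. All merged regions gave 19.97%, 50.8% and 29.2%, and regions in 6 of 6 lists 44.6%, 33.4% and 22%. The intervals of gained and lost regions overlapped in each class, and both sets held far fewer gene ends than the constant regions. Regions with peaks in 3 lists of both kinds, which are as often called as the members, gave 13.9%, 53.4% and 32.7%, close to the gained and lost values. These intervals cover counting error only, and regions of the same libraries are not replicates.

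**Figure D2:**
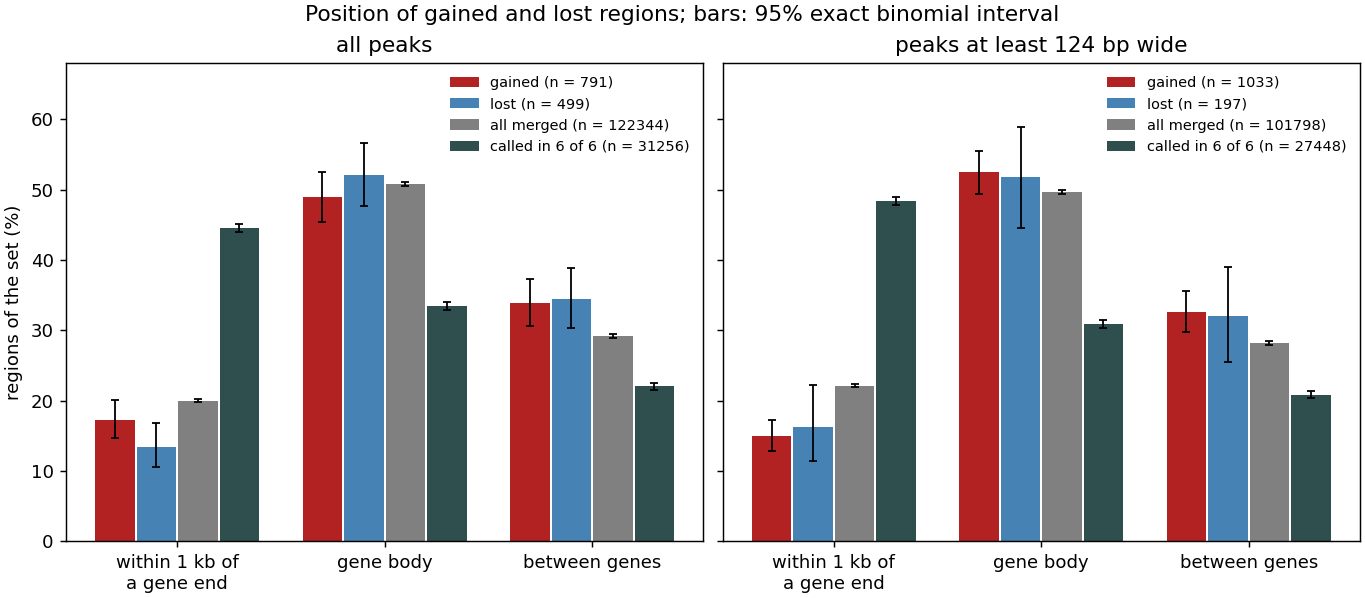
Percent of regions within 1 kb of a gene end, in a gene body or between genes, for gained, lost, all merged and constantly called regions, with all peaks (left) and peaks that met the width limit (right). Bars show 95% exact binomial intervals, and the gene-end share is 17.2% in gained and 13.4% in lost regions against 44.6% in regions called in 6 of 6 lists.

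With the width limit the order of gained and lost turned at gene ends, at 14.9% (12.8 to 17.2) of gained and 16.2% (11.4 to 22.2) of lost regions, and the intervals again overlapped. All regions merged with the width limit gave 22.1%. Counting start sites in place of both gene ends, 7.46% of gained and 4.61% of lost regions were within 1 kb of one. The share was 11.6% of all regions, 33.6% of constant regions and 4.81% of regions called in 3 lists of both kinds. Counting protein-coding genes alone, 8.34% of gained and 7.82% of lost regions were at an end. For all, constant and 3-list regions of both kinds the shares were 13.6%, 35.8% and 8.10%. Among the 136 gained regions at a gene end, the nearest end belonged to a protein-coding gene in 65, to a long noncoding RNA in 42 and to a pseudogene in 17. Among the 67 lost ones the numbers were 35, 21 and 6. Long noncoding RNA ends thus made up 30.9% of gained and 31.3% of lost regions at gene ends, against 24.6% of all merged regions there and 27.4% of those called in 3 lists of both kinds. The difference was not tested.

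Regions between genes differed in how far out they lay. The median distance to the nearest gene end was 12.6 kb for the 268 gained and 19.9 kb for the 172 lost regions, against 12.6 kb for all regions between genes. Of the lost ones, 30.2% were over 100 kb from any gene end, against 8.21% of the gained and 16.0% of all. Regions called in 3 lists of both kinds gave 25.4%. Many of these remote lost regions stood together: the 1-Mb windows with most lost regions were 16 to 17 Mb on chromosome 13 (7 of 325 regions), the one that ends at 125 Mb on chromosome 1 (6 of 393) and 40 to 41 Mb on chromosome 10 (5 of 196), with 4 more at 17 to 18 Mb on chromosome 13 and 4 at 122 to 123 Mb on chromosome 1. These windows hold no protein-coding gene with a lost region and lie in the centromeric parts of their chromosomes, which consist largely of repeated DNA.

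Gained regions gathered elsewhere. Windows with 8 gained regions each were 92 to 93 Mb on chromosome 12 (of 51 regions) and 11 to 12 Mb on chromosome 20 (of 19 regions), neither with a protein-coding gene that was hit. A window at 155 to 156 Mb on chromosome 6 held 5 gained regions around TIAM2, TFB1M and NOX3, and one at 125 to 126 Mb of the same chromosome held 5 around TPD52L1 and NCOA7. In all, 37 windows held 3 or more gained and 14 held 3 or more lost regions. By chromosome, gained regions were most frequent on X (1.14% of its regions) and least frequent on chromosome 19 (0.345%), which is rich in genes. Lost regions ran from 0.139% on chromosome 21 to 0.713% on chromosome 14.

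By strength, the gained and lost regions were mostly weak peaks with a short tail of very strong ones. Each peak was ranked within its list by −log10 q, and a region's rank is the median percentile over its 3 lists, where 0 is the top. The median region ranked at percentile 68.8 in the gained and 59.3 in the lost set. Median folds per list were 3.43 to 3.95 for gained regions and 3.55 to 3.83 for lost regions, beneath the median of 4.03 to 4.78 over all peaks of the resistant and 3.90 to 4.42 over all peaks of the parental lists. A −log10 q of at least 3 in all 3 lists was reached by 123 gained and 94 lost regions. Within the top 5% stood 19 gained and 17 lost regions, and only 8 and 10 lay between percentiles 5 and 20.

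**Figure D3:**
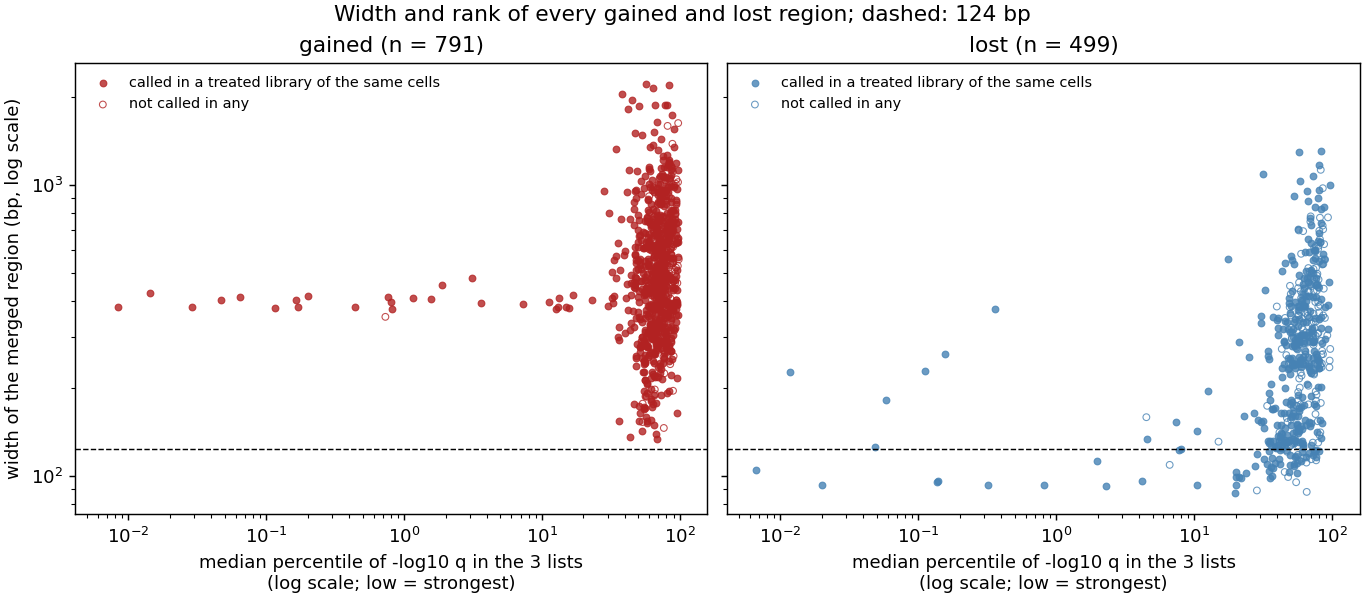
Width of each gained (left) and lost (right) region in bp against its median percentile of −log10 q, both on log scales, where filled points were also called in a treated library of the same cells and the dashed line is the width limit. The 19 strongest gained regions are all 352 to 477 bp wide, while the 17 strongest lost regions have a median width of 112 bp.

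The strongest gained regions were alike in width and rarely at gene ends. The 19 in the top 5% were 352 to 477 bp wide, with 1 at a gene end, 8 in gene bodies and 10 between genes. Treated resistant libraries called 18 of the 19 and treated parental libraries called 0. The next gained region ranked only at percentile 7.23. With folds several times the list medians and a narrow range of widths these regions stand apart from most peaks, and whether they are ordinary accessible sites was not tested, since reads were not used here. The same holds for the strongest lost regions.

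The strongest gained region lay in CTNNB1 (beta-catenin, the effector of Wnt signalling and a partner of cadherins) at chr3:41231653-41232032, 8411 bp inside the gene's nearer end. Its fold enrichment was 30.5, 35.2 and 35.8 and its −log10 q 436, 393 and 425 in the 3 untreated resistant libraries, which placed it at median percentile 0.00847 of all peaks. In the treated resistant libraries the folds were 33.2, 34.8 and 34.9, and no parental library of either treatment held a peak there. The fold thus lay between 30.5 and 35.8 in all 6 resistant libraries.

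Other top regions in gene bodies were about as strong in the untreated resistant libraries. In GRM7 (a metabotropic glutamate receptor) a region of 380 bp had folds of 32.7, 35.1 and 36.9, and in SCAI (a protein that limits cell invasion) a region of 413 bp had folds of 27.8, 27.7 and 31.8. A 425-bp region lay in the noncoding gene LOC728098, 6126 bp from ASCC3, with folds of 31.2, 34.6 and 35.9. The 10 best ranked gained regions also included 5 between genes, near RN7SKP164, SLC44A3P1, LOC124903239, LOC107985963 and SNRPFP3. The only one at a gene end was a 380-bp region over an end of SDHAF3, which encodes an assembly factor of succinate dehydrogenase in the mitochondrion. Its folds were 19.6, 20.4 and 23.7 untreated and 18, 15.2 and 18.8 treated. Treated resistant replicates 1 and 3 called 10 of these 10 regions, whereas treated resistant replicate 2 called 5 of them and held no peak at SCAI or LOC728098. A further strong region that also met the width limit lay in NKAIN2, the gene of a neuronal membrane protein, with folds of 19.8, 20.7 and 21.1.

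**Figure D4:**
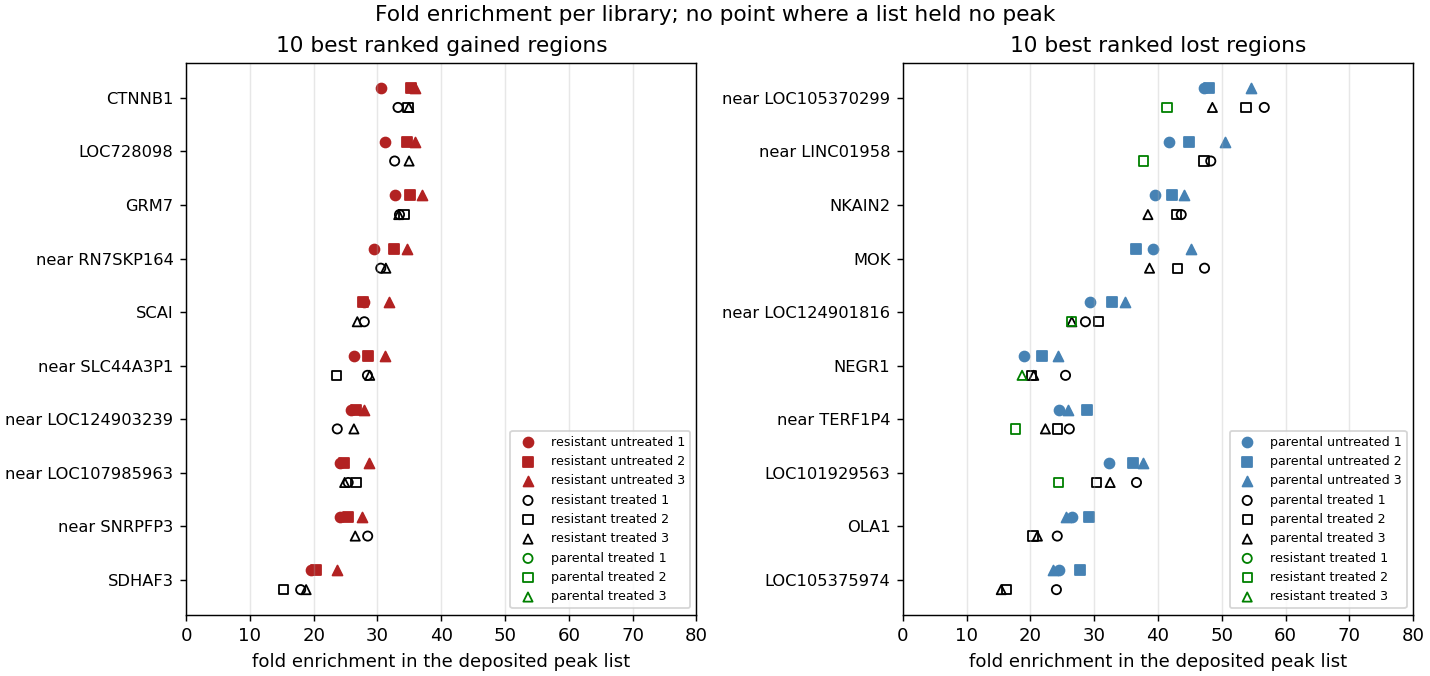
Fold enrichment of the 10 best ranked gained (left) and lost (right) regions, labelled by the gene that holds them or is nearest, with filled symbols for the 3 untreated libraries that define the set and open symbols for treated libraries (black for the same cells, green for the other cells). Gained regions have no point from a treated parental library, whereas 6 of the 10 lost regions have one from a treated resistant library.

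The strongest lost regions were narrower, and some had a peak in treated resistant cells. The 17 in the top 5% were 92 to 376 bp wide with a median of 112 bp, and 9 were under the width limit. Treated parental libraries called 16 of them and treated resistant libraries called 8. The best ranked one, 105 bp wide at chr13:86436046-86436150 and 21482 bp from LOC105370299, had folds of 47.1, 48.0 and 54.6 and −log10 q of 631, 710 and 761. Treated parental libraries gave folds of 56.7, 53.8 and 48.5 there, and treated resistant replicate 2 gave 41.4. This site thus had a strong peak in 1 of the 6 resistant libraries.

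The 5 calls of the top 10 lost regions in treated resistant replicate 2 and the 1 in treated resistant replicate 3 account for all of them, since treated resistant replicate 1 held 0 of the 10. The smallest peak was 94 bp in treated resistant replicate 2 and 106 to 112 bp in the other two, and the part of peak width in these calls was not tested. The regions near LINC01958 (227 bp) and LOC124901816 (182 bp), called in replicate 2, and the one in NEGR1 (230 bp), called in replicate 3, were wider than these limits. Among the top 10 lost regions in gene bodies, MOK (a MAP-kinase-like kinase) had folds of 39.1, 36.6 and 45.2 over 126 bp, and NKAIN2 had 39.5, 42.2 and 44.1 over 93 bp. NKAIN2 also held the gained region named above, in another part of the gene. OLA1 (an ATPase related to the Obg GTPases) had folds of 26.5, 29.2 and 25.5 over 263 bp and NEGR1 (a neuronal adhesion protein) 19, 21.9 and 24.3 over 230 bp. OLA1 and NEGR1 remained lost with the width limit, as 4 of the 10 did, and OLA1 was called in 3 treated parental and 0 treated resistant lists.

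At ends of protein-coding genes, the best ranked gained regions after SDHAF3 were weak by comparison. CYP3A43 (a cytochrome P450) had folds of 9.30, 7.06 and 8.93 in a region 236 bp from its end, called in 3 treated resistant and 0 treated parental lists. NFKBIA (the NF-kappa-B inhibitor I-kappa-B-alpha) had the widest of these regions, 2233 bp, 166 bp from its end, with folds of 2.56, 2.84 and 3.06 and the same treated pattern. The others were at PTPN22, TGFBR2, GLP1R (the GLP-1 receptor), SUSD1, CDCA7L, ZNF516 and ZSCAN12. All 10 were called in some treated resistant list and 4 in some treated parental list. With the width limit, PTPN22 and GLP1R were no longer gained.

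The 10 best ranked lost regions at protein-coding gene ends were at BAIAP2L1, TSC22D4, TBC1D3K, ZMYND19, SSH2, PSMA3 (a proteasome subunit), RGMB (a coreceptor of bone morphogenetic proteins), PRR19, PCGF2 (a Polycomb protein) and GRB7 (an adaptor of receptor tyrosine kinases). Folds ran from 3.06 to 6.35 and widths from 133 to 337 bp. Of these, 7 were called in some treated resistant list, and 1 had peaks in 3 treated parental and 0 treated resistant lists. That one was GRB7, a 337-bp region over an end of the gene with folds of 3.36, 3.61 and 3.28, which also met the width limit. TBC1D3K belongs to a family of near-identical copies, so its call is uncertain, although reads without a unique position had been removed before peak calling.

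The treated libraries were not used to choose regions, so they show how far the sets recur. Gained regions had a peak in 613, 382 and 515 of 791 cases in the 3 treated resistant libraries and in 54, 114 and 79 cases in the 3 treated parental libraries. The groups did not overlap, with means of 503 ± 116 and 82.3 ± 30.1 and a difference of 421 regions (n = 3 each, two-sided exact permutation p = 0.1, the smallest possible). Lost regions had a peak in 165, 118 and 133 of 499 cases in treated resistant and in 197, 257 and 177 cases in treated parental libraries. These groups did not overlap either, with a difference of −71.7 regions (exact permutation p = 0.1), but the gap was far smaller. It turned to 14.7 when the lost set was rebuilt without untreated resistant replicate 1, and was −12 without untreated parental replicate 3. With the width limit described above, the difference for lost regions was −20.3 (exact permutation p = 0.2). Regions called in 3 untreated lists of both kinds had a peak in 51.0%, 28.2% and 45.7% of cases in treated resistant libraries. In treated parental libraries these shares were 17.5%, 29.3% and 21.7%.

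**Figure D5:**
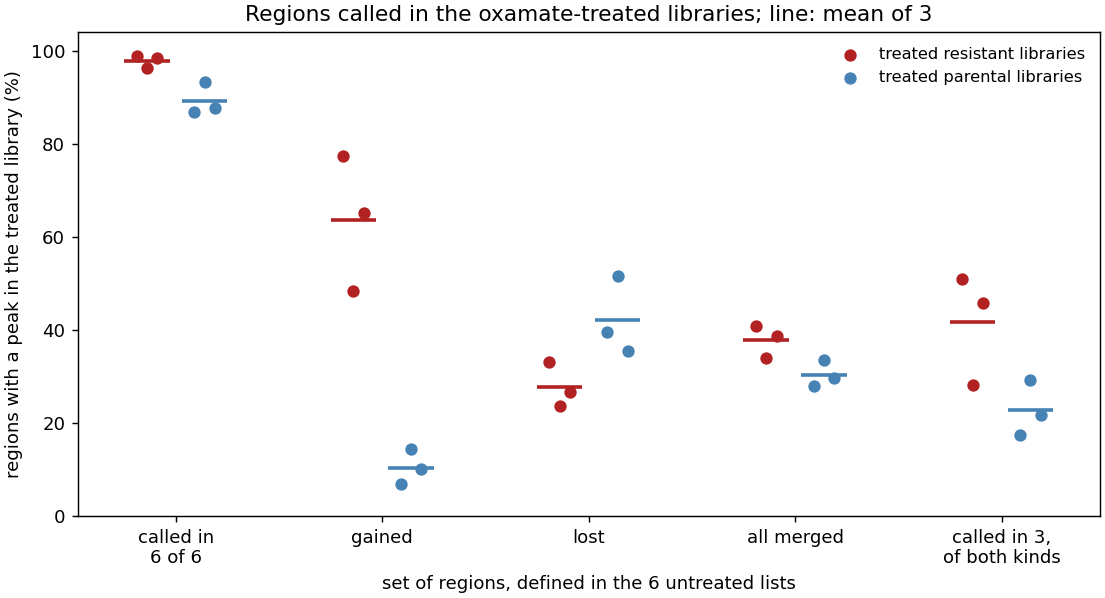
Percent of each set of regions with a peak in each of the 3 treated resistant (red) and 3 treated parental (blue) libraries, with a line at the mean. Gained regions lie at 48.3% to 77.5% in treated resistant and 6.83% to 14.4% in treated parental libraries, while lost regions lie at 23.6% to 33.1% and 35.5% to 51.5%.

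Taken by region, 212 gained regions (26.8%) had a peak in 3 treated resistant and 0 treated parental lists, against 2.02% of all merged regions. The reverse pattern was found in 0 gained regions. Of the lost regions, 46 (9.22%) had a peak in 3 treated parental and 0 treated resistant lists, against 0.543% of all. Regions called in 3 untreated lists of both kinds gave 5.59% and 2.31% for these patterns. Treated resistant lists outnumbered treated parental lists at 648 gained regions (81.9%) and were outnumbered at 35 (4.42%). Among lost regions treated parental lists led at 219 (43.9%) and treated resistant lists at 134 (26.9%). Over all merged regions, treated resistant lists led at 22.1% and treated parental lists at 7.62%. Regions called in 3 untreated lists of both kinds gave 54.0% and 18.4%. The smallest peak differed between the treated groups as it did between the untreated ones, at 94 to 112 bp in resistant and 67 to 81 bp in parental libraries. Relative depth was 0.994 to 1.12 in treated resistant and 1.65 to 2.75 in treated parental libraries, and the part of these values in the recurrence was not tested.

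Of the 16795 protein-coding genes with any region over their span plus 1 kb at each side, 380 (2.26%) had a gained and 279 (1.66%) a lost region, and 12 had both. Genes hit were long, with a median span of 112 kb for gained and 64.2 kb for lost against 29.8 kb for all. They also held more regions of any kind, at medians of 8 and 7 against 3, and a gene with more regions can be hit more easily. Only 19 genes had 2 or more gained regions and 7 had 2 or more lost regions. Hits were therefore spread over many genes rather than stacked on a few.

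HIVEP2, which encodes a zinc-finger transcription factor, had the most gained regions. Its 4 lay in the gene body, 42593 to 95425 bp from the nearer end, with folds between 3.42 and 5.05, and all 4 were called in 3 treated resistant lists. With the width limit 2 of the 4 were kept. KCNMA1 (the alpha subunit of the large-conductance potassium channel), NOX3 (an NADPH oxidase), MICAL2 (an oxidase that disassembles actin) and DLC1 (a GTPase-activating protein) had 3 gained regions each and kept 3 with the width limit. The best ranked of these, in KCNMA1, had folds of 3.86, 4.86 and 5.57. DLC1 also had 1 lost region. The genes differed in how many regions they held in all, with 4 in DLC1, 7 in NOX3, 15 in HIVEP2, 18 in MICAL2 and 60 in KCNMA1. Every region of DLC1 was thus gained or lost.

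TSC22D4-C7ORF61, CUEDC1, HPCAL1, PDHX and HIVEP3 had 2 lost regions each, of which 1 each remained with the width limit. HIVEP3, a relative of HIVEP2, also had 1 gained region. Of the 10 lost regions in these genes, 5 were called in some treated parental list and 8 in some treated resistant list. In the treated libraries these genes thus showed no lead of parental calls.

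Lists of genes were counted for metabolic, stress, signalling and lineage pathways of interest in pancreatic cancer cells, and for glutamate receptors and adhesion molecules with long genes. The 21 lists hold 412 genes, of which 392 had a region, 16 a gained one (4.08%) and 10 a lost one (2.55%), against 2.26% and 1.66% of all genes. The listed genes are longer than others, with a median span of 41.0 kb against 29.8 kb. Without the glutamate receptor and long adhesion lists, a count added after seeing the data, 10 of 342 genes (2.92%) had a gained and 8 (2.34%) a lost region. Counts of 0 to 3 per list allow no statement on any one list.

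For the path from glucose to the citric acid cycle the calls were weak. Their counts are too small to be set against all genes, of which 2.26% had a gained and 1.66% a lost region. Of 28 genes of glycolysis and glucose import 0 were gained and 2 lost: ALDOA (aldolase A), with folds of 2.48, 2.37 and 2.89 on a span shared with LOC112694756, and PFKL (phosphofructokinase), with 3.31, 2.79 and 2.94. Neither remained with the width limit, and the PFKL region was called in 2 treated resistant and 0 treated parental lists, against its untreated direction. Of 11 measured genes of lactate dehydrogenase and lactate transport, 1 was gained, EMB (embigin, an accessory protein of monocarboxylate transporters), with folds of 3.30, 3.87 and 3.71 in a region 1667 bp inside the gene. It was called in 3 treated resistant and 0 treated parental lists and kept with the width limit. LDHA itself was among the genes with no gained and no lost region.

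Of 31 genes of pyruvate entry and the citric acid cycle, MPC2 (a subunit of the mitochondrial pyruvate carrier) had a gained and PDHX (a component of the pyruvate dehydrogenase complex) a pair of lost regions. The MPC2 region, on a span shared with DCAF6, had folds of 4.31, 4.27 and 3.99, and the better ranked PDHX region had 3.28, 4.24 and 3.51. The PDHX regions were called in 1 treated parental list at most and also in 1 treated resistant list each. GLDC (glycine decarboxylase) was the one gained gene of 18 in serine, glycine and one-carbon metabolism, with folds of 2.81, 3.03 and 3.08, a median percentile of 98.2 and no call in any treated list. No gene of glutamine and aspartate metabolism, the pentose phosphate pathway, fatty acid synthesis or AMPK signalling was gained or lost. These lists have 12 to 21 measured genes each, so counts of 0 say little beside the 2.26% and 1.66% of all genes. With the width limit GLUD1, SLC1A5 and NADK were gained, but a gain seen only with this limit can rest on left-out narrower parental peaks.

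Single genes of the hypoxia and stress lists were hit. EPAS1 (HIF-2-alpha) and TRIB3 (a pseudokinase of the integrated stress response) had gained regions in their bodies, with folds of 4.21, 3.47 and 4.72 and of 3.04, 2.90 and 3.08. EPAS1 was called in 0 treated resistant and 1 treated parental lists, against its untreated direction. ATF3 (a stress-induced transcription factor) had a lost region with folds of 2.78, 2.83 and 2.85, and TXNRD1 (thioredoxin reductase) one with 3.21, 2.88 and 3.04 near an end. With the width limit, which also leaves out narrow parental peaks, TXNRD1 had both a lost and a gained region, and CARS1 was gained. No AP-1 factor gene and no gene of the pancreatic lineage list was gained or lost with all peaks. With 17 and 15 measured genes in these lists, counts of 0 say little beside the 2.26% and 1.66% of all genes. NKX6-1 was gained only with the width limit, so narrower parental peaks may have been left out there.

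Growth factor, adhesion and neuronal genes made up the rest. CTNNB1 was the one gained gene of 31 in the Wnt list and TGFBR2 the one of 18 in the TGF-beta list. TGFBI (a TGF-beta-induced matrix protein) had a gained region of 932 bp with folds of 4.43, 3.92 and 4.32, called in 3 treated resistant and 0 treated parental lists, and TWIST2 (a transcription factor of mesenchymal cells) had a lost one with 4.03, 4.31 and 3.29, called in 2 treated resistant and 0 treated parental lists, against its untreated direction. Among receptor tyrosine kinases, ERBB4 had a gained region with folds of 4.88, 3.53 and 4.39, FLT1 (a VEGF receptor) a lost one of 112 bp with 16.2, 17.2 and 15.1, and INSR (the insulin receptor) a lost one with 3.85, 3.30 and 3.20. TWIST2, FLT1 and INSR were no longer lost with the width limit, whereas KRT8 and DDR2 were gained under it.

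Of 24 measured glutamate receptor genes, GRM7, GRIA4 and GRIN2A were gained and GRID1 and GRIN2B lost, and of 26 measured adhesion genes of long span CADM2 and NRXN3 were among those gained and 0 were lost. GRIA4 had folds of 5.54, 5.04 and 6.38 and CADM2 8.71, 6.31 and 5.80. These lists have median spans of 348 and 914 kb against 29.8 kb for all genes, so more regions can fall in them. With the width limit GRID1 and GRIN2B were no longer lost.

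Gained and lost regions also differed in how near a peak of the other cells lay. A parental untreated peak was within 1 kb of 13.1% of gained regions, at a median distance of 7.48 kb, and a resistant untreated peak was within 1 kb of 21.2% of lost regions, at a median of 3.06 kb. Over 50 kb from any peak of the other cells were 16.8% of gained and 6.41% of lost regions. More of the lost regions than of the gained regions thus bordered a site that was open in the other cells. These distances were not taken for other sets of regions, so no reference share stands beside them. Untreated resistant peaks also covered more sequence than untreated parental peaks, at means of 28.9 and 23.7 Mb per library. The part of this in the distances was not tested.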

How the data were processed

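ATAC-seq fragments were aligned by the authors with Bowtie2 (version 2.1.0 in the submitters' processing notes) to hg38. Reads from mitochondria, duplicates and reads without a unique position were taken out, and broad peaks were then called with MACS2 in each library separately. The MACS2 version, its control and any blacklist are not given in the sources used here. The deposited lists hold, per peak, its position, a score (10 times −log10 of the q-value, cut to a whole number), a fold enrichment ratio over local background, −log10 of the p-value and −log10 of the q-value. Read counts were not used here, so sequencing depth is unknown except for a relative depth inferred from the most frequent fold and p pair. The count model of the study could not be run on peak lists, so the presence of peaks was set side by side.

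Only peaks of the 22 autosomes and X entered (0.785% of peaks of the 6 untreated lists were left out) and they were merged at 1 bp of overlap. Regions were placed with 59098 RefSeq genes (GRCh38.p14), of which 19974 were protein-coding, as within 1 kb of either end of a gene (this table gives no strand), inside a gene or between genes. Start sites came from 34961 RefSeq promoter windows, of which 70.9% started at the outer end of their gene. The width limit of 124 bp is the largest of the smallest peak widths of the 6 lists. Intervals are Clopper-Pearson, at 95%. Single values per library were compared by two-sided exact permutation over 20 assignments (smallest p 0.1), adjusted by Benjamini-Hochberg over 11 tests. Code was tested on simulated data.

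Named regions were the 10 gained and 10 lost with the best median percentile of −log10 q, the 10 of each so ranked at a protein-coding gene end, the 5 of each so ranked in a protein-coding gene body under the 124-bp rule, the 5 genes with most gained and with most lost regions, and all members of the gene lists with a gained or lost region. Regions over a protein-coding start site were added after their values were seen. Some items that these rules select are not reported here. The regions, rules and lists were chosen with earlier results of these data known. Alternatives were stricter q-values, other overlap rules, fixed windows, other distances to genes, left-out libraries and a replicate block. The analysis used Python 3.11.15, numpy 2.4.6, pandas 2.3.3 and scipy 1.17.1.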

Additional observations from a re-analysis of the deposited data

How the results depend on the processing

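The number of gained regions stayed within 1.5 times of 791 under the width limit, with a −log10 q of at least 3 and with the same number of top peaks per list. It was 123 when a −log10 q of at least 3 was asked only of the peaks that define a gain, and 1548 when peaks had to cover at least 50% of a region. The 499 lost regions became 197 under the width limit, 162 with that limit on one side only, 175 with a −log10 q of at least 3, 94 with that limit on one side only, 324 with 50% cover and 29 in windows of 1 kb with 500 bp of peak. Leaving out 1 library gave 1044 to 2134 gained and 810 to 1402 lost regions. Every left-out library moved both counts by over 1.5 times except parental replicate 3, without which 1044 regions were gained. The alternative's own construction, 2 of 2 in place of 3 of 3, makes the rule looser.

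The share of gained regions at a gene end was 22.6% and, on one side only, 13.8% with a −log10 q of at least 3, 25.8% with 50% cover, 51.6% in 1-kb windows, 11.5% within 500 bp, 38.8% within 5 kb, 8.34% with protein-coding genes and 7.46% with start sites, the last chosen after seeing the data. Inside gene bodies it was 30.7% in 1-kb windows, 52.8% and 36.4% at 500 bp and 5 kb, and 40.6% with protein-coding genes. Between genes it was 39.0% with the one-sided q limit, 28.0% with 50% cover, 17.7% in 1-kb windows, 24.8% at 5 kb and 51.1% with protein-coding genes. Without 1 library these shares were 15.2% to 18.8%, 48.9% to 54.8% and 30.04% to 34%.

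The share of lost regions at a gene end was 17.3% with the one-sided width limit, 44.8% in 1-kb windows, 8.02% within 500 bp, 39.3% within 5 kb, 7.82% with protein-coding genes and 4.61% with start sites. Inside gene bodies it was 44.6% and 40.4% with the q limit on both sides and one side, 31.0% in windows, 32.9% at 5 kb and 46.3% with protein-coding genes. Between genes it was 29.6% with the one-sided width limit, 41.7% and 45.7% with the q limits, 24.1% in windows, 27.9% at 5 kb and 45.9% with protein-coding genes. Without 1 library these shares were 11.0% to 14.4%, 46.9% to 55.9% and 30.8% to 41.9%.

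The difference in peaks per library, resistant minus parental, was −4684 and turned to 3585 under the width limit and 2780 at a −log10 q of 3. The share of peaks at a gene end turned to −1.50, −1.29 and −0.283 percentage points under the width limit, at the q limit and with equal numbers of top peaks, that in gene bodies to 1.48, 1.10 and 0.593, and that between genes to 0.0186 and 0.196 under the first pair of these. Without 1 library the differences ran from −6342 to −3216 peaks, 2.70 to 6.77 Mb covered, 0.680 to 1.97 points at gene ends, −1.22 to 0.270 in gene bodies (0.270 without resistant replicate 2), −1.71 to −0.0895 between genes and 50 to 234 protein-coding genes with a peak at an end. For the recurrence in treated libraries they ran from 366 to 797 gained and from −154 to 14.7 lost regions.

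Listed genes with a gained region numbered 16, and 7 with the one-sided q limit, 32 with 50% cover and 18 to 33 without 1 library. Those with a lost region numbered 10, and 3 under either width limit, 1 under either q limit, 5 with 50% cover, 1 in windows and 14 to 28 without 1 library. The causes of these shifts were not tested.

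With the replicate number as a block (paired differences, 8 sign flips, smallest p 0.25), the difference stayed at 421 gained regions (exact p = 0.25), and the block changed no call. Same-numbered resistant and parental libraries correlated at 0.00215, −0.037 and −0.00959 over 91088 regions. Pairs with different numbers ran from −0.0253 to 0.0331, a similar range. These values therefore cannot tell whether libraries with equal numbers shared a culture or a day. Depth is known only relatively, which limits statements about weak peaks.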
